A study of Mus musculus with 12 samples.

Results

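The report concerns 9 genes, out of 55487 genes counted: the C/EBP transcription factors Cebpa, Cebpb, Cebpd and Cebpg, the adipogenic nuclear receptor Pparg, and the adipocyte genes Fabp4, Lpl, Adipoq and Plin2. They were taken by symbol, and the group was chosen because Cebpb was lower in ribosome-associated RNA of HTT-deleted cells in every replicate pair, so values of that comparison are given here as a description with no test. The cells were primary mouse embryonic fibroblasts from embryos of day 13.5, all of them homozygous for a floxed Htt gene (HTTfl/fl), which encodes huntingtin. HTT-deleted cells had received a lentivirus encoding Cre recombinase with GFP, and control cells a lentivirus encoding a histone H2B-eGFP fusion. Both were harvested 7 days after transduction. From each culture, 1/15 of the cell suspension gave total RNA and the rest was used to purify ribosomes and their associated RNA. The groups were therefore ribosome-associated RNA of HTT-deleted cells, ribosome-associated RNA of control cells, total RNA of HTT-deleted cells and total RNA of control cells, with 3 libraries each. Replicates were, per the labels, different primary cultures or different passages. Huntingtin loss cannot be told apart here from effects of Cre or of the different vector cargo, since they came together.

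C/EBP proteins are basic leucine zipper transcription factors that bind DNA as dimers. In the textbook sequence of fat cell formation, Cebpb and Cebpd are switched on early and activate Cebpa and Pparg, which keep each other on and turn on genes of the fat cell such as Fabp4, Lpl, Adipoq and Plin2. Embryonic fibroblasts can follow this route when given adipogenic hormones, and the labels name no such agent for these cultures. Several of these genes also have a place outside fat: Cebpb and Cebpd respond to inflammatory signals, and macrophages use Cebpa, Cebpb, Fabp4, Lpl and Plin2.

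Cebpb and Cebpa are known for making more than 1 protein from 1 mRNA by starting translation at different in-frame AUG codons. For Cebpb, the long forms are activators (LAP* and LAP) and the short form (LIP) lacks the activation domains and acts mainly as a repressor. The in-frame ATG codons of the Cebpb reading frame that lie at codons 1, 22 and 152 of 296 are shown because read counts over the gene sum all of these products. Each window is from the single exon of Cebpb on the plus strand of GRCm38, in the GENCODE M21 annotation, with the ATG in capitals.

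Cebpb codon 1, chr2:167689013-167689036: cccgcgttcATGcaccgcctgctg

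Cebpb codon 22, chr2:167689076-167689099: tttagacccATGgaagtggccaac

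Cebpb codon 152, chr2:167689466-167689489: gcgcccgccATGgcggccggtttc

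The C/EBP genes have closely related coding sequence in the basic region, which contacts DNA, so their counts are uncertain to the extent that reads from it could not be placed on 1 gene.

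Htt, the targeted gene, was lower in every HTT-deleted library. Levels are given as CPM, the counts of a gene scaled to the size of its library. Htt had 15.5, 10.6 and 10.7 CPM in total RNA of HTT-deleted replicates 1, 2 and 3, against 58.9, 45.7 and 64.5 CPM in control replicates 1, 2 and 3. In ribosome-associated RNA it had 12.8, 5.04 and 3.98 CPM in HTT-deleted replicates, against 22.6, 20.1 and 31.9 CPM in control replicates. Libraries held 16789356 to 30571501 counts assigned to genes. A pair of libraries stood apart from the others of their fraction in how their levels ran with gene length. Over 10782 genes, the deviation from the mean of the other libraries of the fraction correlated with transcript length at a Spearman rho of -0.63 in HTT-deleted replicate 1 of total RNA, against 0.25 to 0.45 in the other 5 total libraries. It was -0.54 in control replicate 1 of ribosome-associated RNA, against 0.018 to 0.20 in the other 5 ribosome libraries. The SD of the deviation over genes was 0.75 in HTT-deleted replicate 1 of total RNA, against 0.26 to 0.40 in the other 5. In control replicate 1 of ribosome-associated RNA the SD was 0.27, below the 0.28 to 0.39 of the other 5. By the size of its deviation only the total library stood apart.

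The level of the genes per kilobase followed the same broad order in all 4 groups: Lpl first, Plin2 next, Cebpb after it, Pparg eighth and Adipoq last. Lpl, the lipase that frees fatty acids from circulating triglyceride, averaged 124 ± 75.4 CPM per kilobase in total RNA of HTT-deleted cells and 93.3 ± 52.6 in total RNA of control cells (SD, n = 3 each). Plin2, which coats lipid droplets in most cell types, averaged 73.3 ± 24.2 and 61.6 ± 14.8 CPM per kilobase in the same 2 groups. The ranges of Lpl and Plin2 overlapped in every group, so their order was within the spread of the replicates. Cebpb lay below Plin2 with no overlap in 3 of the 4 groups, at 28.6 ± 5.81 CPM per kilobase in total RNA of control cells, and overlapped it in total RNA of HTT-deleted cells, at 38.8 ± 24.2. Cebpa, Cebpd, Cebpg and the fatty acid carrier Fabp4 followed at group means of 11.7 to 20.7 CPM per kilobase, with ranges that overlapped from each to the next. Pparg, the master regulator of fat cell formation, lay clearly below these at group means of 1.64 to 2.37 CPM per kilobase. Adipoq, the adipokine adiponectin, had 0 to 5 counts per library and 24 counts in all, and 4 libraries had none, where a count of 0 allows up to 3 counts. It did not pass the filter on low counts, so 8 of the 9 genes were tested.

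**Figure D1:**
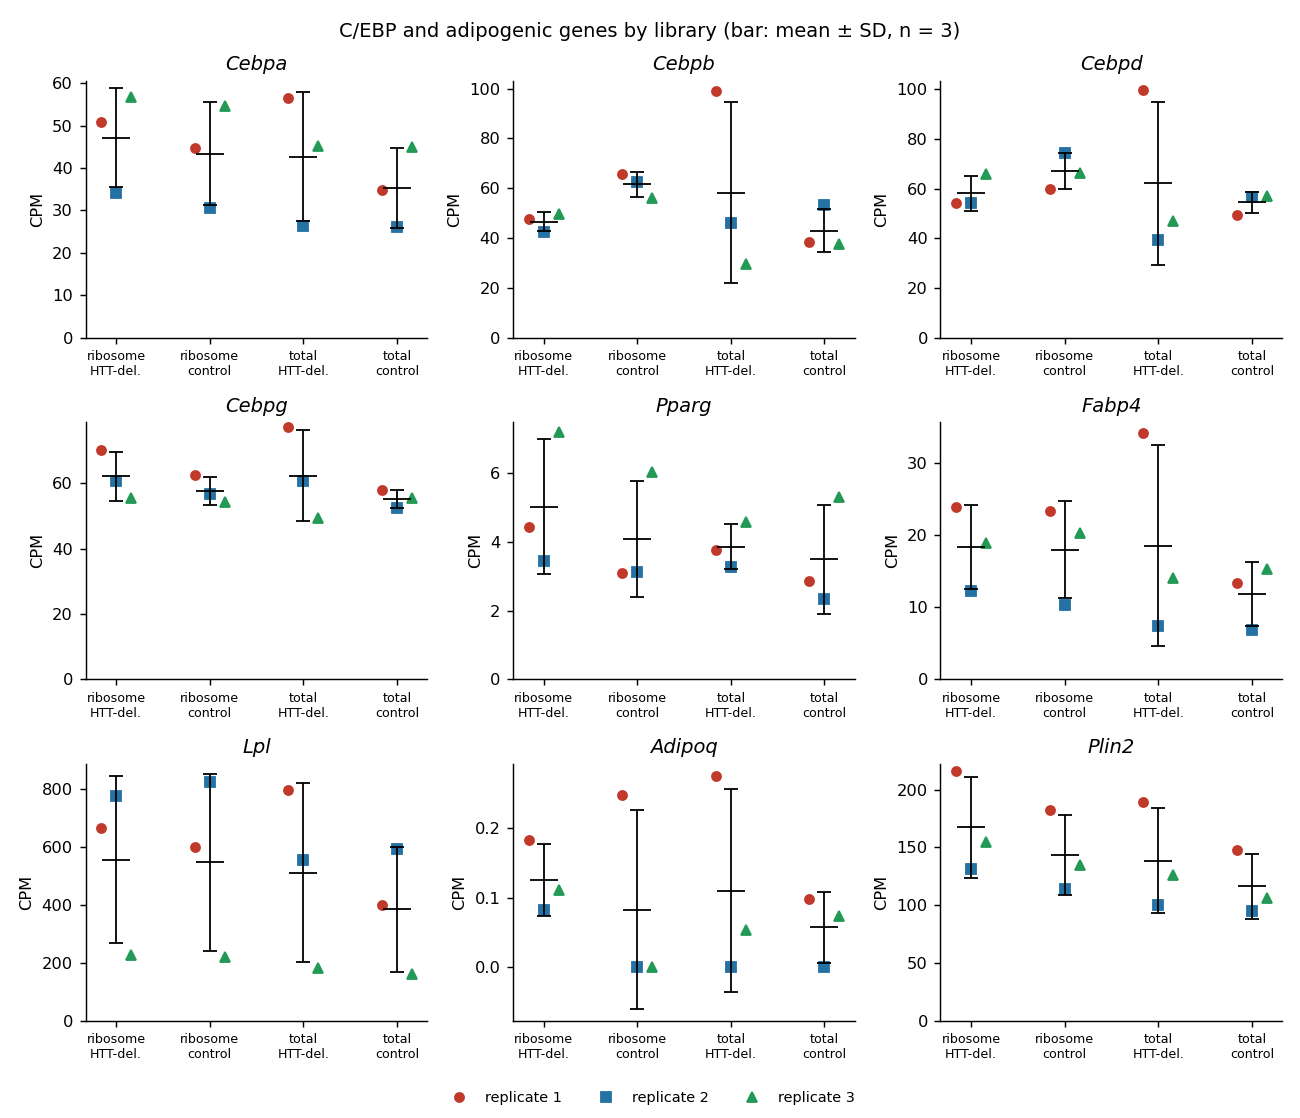
Level in CPM (linear axis) of each gene in the 12 libraries, grouped by RNA fraction and by HTT deletion, with points for replicates 1 to 3 and a bar for the mean ± SD (n = 3). Cebpb in ribosome-associated RNA sits at 42.5 to 49.8 CPM in HTT-deleted cells and at 56.2 to 65.9 CPM in control cells, while HTT-deleted replicate 1 is the highest total library for Cebpb, Cebpd, Cebpa, Cebpg, Fabp4, Lpl and Plin2.

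The adipocyte identity of the list was checked against markers. Of 7 adipocyte markers, Cidec, Lep and Cfd had 0 counts in all 12 libraries, Plin1 at most 3, Retn at most 2 and Adipoq at most 5. Lipe, the hormone-sensitive lipase, was the exception with 90 to 274 counts. The 10 fibroblast markers summed to 24559 to 50377 CPM over the 12 libraries. The 8 adipose progenitor markers summed to 978 to 1529 CPM, and Pdgfra and Pdgfrb stand in both lists. Of the progenitor markers, Dpp4 had 2 to 28 counts, Cd24a 19 to 86 and Pi16 49 to 107. The libraries thus carried Lpl, Plin2, Fabp4 and the C/EBP factors at measurable levels while the defining genes of mature fat cells were at or near 0.

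The first comparison asked whether total RNA of the 9 genes differed between HTT-deleted and control cells. No gene of the list passed the test in total RNA, whether or not replicate numbers were used as a block. Of all 14759 genes tested, 0 (0%) were called without the block and 0 (0%) with it by edgeR's quasi-likelihood test at an adjusted p of 0.05. Htt, the targeted gene, was itself not called. Its log2 fold change was -2.16 (SE 0.24, edgeR adjusted p = 0.812) without the block and -2.18 (SE 0.20, edgeR adjusted p = 0.902) with it. A lack of calls for the genes of the list therefore does not show that they were unchanged. Unadjusted p-values under 0.05 were found for 44 genes without the block and 350 with it. None of the 8 tested genes had groups that did not overlap, where 1.61% of all genes lay wholly higher and 2.6% wholly lower in HTT-deleted cells.

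Cebpb in total RNA had 99.2, 46.0 and 29.7 CPM in HTT-deleted replicates 1, 2 and 3, against 38.5, 53.1 and 37.5 CPM in control replicates 1, 2 and 3. Replicate 1 of the HTT-deleted cells was far above every other total library, and replicates 2 and 3 were each below their control partner. The fitted log2 fold change, HTT-deleted over control, was 0.49 (SE 0.45, edgeR adjusted p = 0.978), and without that library it was -0.17 (SE 0.26, edgeR adjusted p = 1).

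Cebpd, the partner factor that rises with Cebpb early in fat cell formation, showed the same layout. Its total RNA level was 99.7, 39.3 and 47.1 CPM in HTT-deleted replicates 1, 2 and 3, against 49.4, 56.7 and 57.1 CPM in control replicates 1, 2 and 3. The log2 fold change was 0.24 (SE 0.37, edgeR adjusted p = 0.978) with all libraries and -0.32 (SE 0.11, edgeR adjusted p = 1) without HTT-deleted replicate 1. In replicates 2 and 3 alone, fitted with replicate number as a block, Cebpd was lower in HTT-deleted cells by a log2 fold change of -0.39 (SE 0.08, edgeR adjusted p = 0.0468). That fit called 94 of 14938 genes (0.629%) and rests on 1 residual degree of freedom per gene, moderated across genes. Cebpb had -0.26 (SE 0.08, edgeR adjusted p = 0.221) in it, and no other gene of the list was called.

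Cebpa, which with Pparg sustains the fat cell state, had 56.6, 26.3 and 45.1 CPM in total RNA of HTT-deleted replicates 1, 2 and 3, against 34.9, 26.1 and 45.0 CPM in control replicates. Replicates 2 and 3 were nearly equal to their partners, and the groups overlapped throughout. Cebpg, a short family member without an activation domain that acts through its dimers, had 77.2, 60.5 and 49.3 CPM in HTT-deleted replicates, against 58.0, 52.4 and 55.5 CPM in control replicates. The log2 fold changes were 0.31 (SE 0.33) for Cebpa and 0.21 (SE 0.20) for Cebpg, both with an edgeR adjusted p of 0.978, and they were 0.02 and 0.00 without HTT-deleted replicate 1.

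Pparg was the least abundant tested gene, with 3.76, 3.27 and 4.57 CPM in total RNA of HTT-deleted replicates 1, 2 and 3, against 2.85, 2.32 and 5.31 CPM in control replicates. Replicate 3 was the highest of both groups, and the log2 fold change was 0.17 (SE 0.37, edgeR adjusted p = 0.978).

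Among the lipid genes, Fabp4 had 34.2, 7.36 and 14.1 CPM in total RNA of HTT-deleted replicates 1, 2 and 3, against 13.4, 6.82 and 15.3 CPM in control replicates. Lpl had 797, 556 and 182 CPM in HTT-deleted replicates, against 399, 593 and 161 CPM in control replicates. For Plin2 the levels were 189, 100.1 and 126 CPM in HTT-deleted replicates, against 148, 95.1 and 106 CPM in control replicates. Replicate 1 was again the highest HTT-deleted library for all 3 genes. For Plin2 each HTT-deleted library exceeded its own control partner, by 0.35, 0.07 and 0.25 on the log2 scale, although the groups overlapped. The fitted log2 fold changes were 0.70 (SE 0.59) for Fabp4, 0.46 (SE 0.65) for Lpl and 0.29 (SE 0.30) for Plin2, each with an edgeR adjusted p of 0.978. Without HTT-deleted replicate 1 they were -0.14, -0.05 and -0.03, and in replicates 2 and 3 with the block they were -0.02, 0.04 and 0.17, the last with an SE of 0.07 and an edgeR adjusted p of 0.381. Markers of macrophages, whose values follow, were also above 0 in this comparison.

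**Figure D2:**
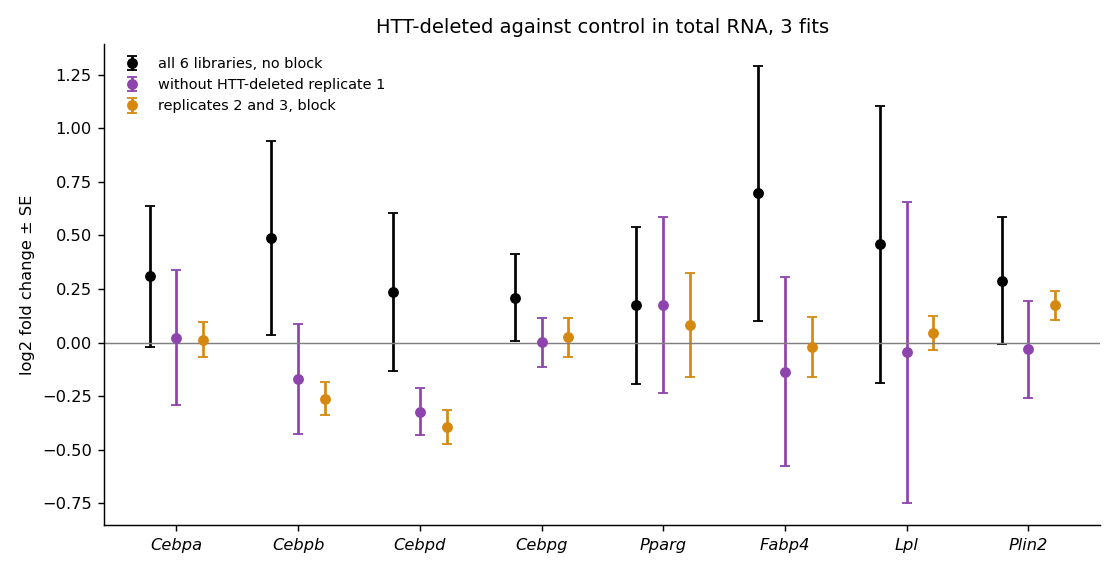
Log2 fold change (HTT-deleted over control, bars: SE) of the 8 tested genes in total RNA, from all 6 libraries without a block, without HTT-deleted replicate 1, and from replicates 2 and 3 with the replicate number as a block. All 8 values of the 6-library fit lie above 0, and in the other 2 fits Cebpb lies at -0.17 and -0.26 and Cebpd at -0.32 and -0.39.

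The authors' deposited table, whose columns run HTT-deleted over control by the sign of Htt (-2.18 in total RNA), gave total RNA log2 fold changes of 0.46 for Fabp4, 0.38 for Lpl and 0.32 for Cebpb. In the authors' deposited table the false discovery rate was 0.0433 for Fabp4, 0.293 for Lpl and 0.171 for Cebpb. Per its name, that table came from RUVSeq and edgeR, and it holds likelihood ratio scores. The fits given above are quasi-likelihood fits without RUVSeq, so the authors' table and these fits are different analyses of the same libraries. The authors' table lists 844 of 16974 genes (4.97%) at a false discovery rate under 0.05 in total RNA. Adipoq has no value in it, and Fabp4 was the only one of the other 8 genes past that threshold.

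In ribosome-associated RNA, the comparison by which the genes were chosen, Cebpb had 47.6, 42.5 and 49.8 CPM in HTT-deleted replicates 1, 2 and 3, against 65.9, 62.7 and 56.2 CPM in control replicates 1, 2 and 3. Every HTT-deleted library lay below every control library, and the differences within pairs were -0.47, -0.56 and -0.17 on the log2 scale. The fitted log2 fold change was -0.40 (SE 0.10), a level about 0.76 times that of control. Cebpb was the 1 gene of the 8 whose groups did not overlap, where 2.82% of all genes lay wholly lower in HTT-deleted cells. With any 1 of the 6 libraries left out the fitted value of Cebpb ranged from -0.46 to -0.33. This range is a description only, since Cebpb was chosen for being lower in every pair of these same libraries.

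Cebpd was likewise lower in each pair in this fraction, but barely so in replicate 3. It had 54.1, 54.0 and 66.0 CPM in HTT-deleted replicates, against 60.0, 74.4 and 66.4 CPM in control replicates, with pair differences of -0.15, -0.46 and -0.01. Its fitted log2 fold change was -0.20 (SE 0.12), and its groups overlapped.

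Cebpa and Cebpg did not share this direction. Cebpa had 50.7, 34.0 and 56.6 CPM in ribosome-associated RNA of HTT-deleted replicates, against 44.8, 30.5 and 54.6 CPM in control replicates. Cebpg had 70.1, 60.8 and 55.3 CPM in HTT-deleted replicates, against 62.5, 56.6 and 54.2 CPM in control replicates. Both were higher in all 3 pairs by small amounts, 0.05 to 0.18 for Cebpa and 0.03 to 0.17 for Cebpg on the log2 scale, inside overlapping groups.

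Pparg had 4.45, 3.43 and 7.22 CPM in ribosome-associated RNA of HTT-deleted replicates, against 3.10, 3.12 and 6.04 CPM in control replicates. For Plin2 the levels were 216, 131 and 155 CPM in HTT-deleted replicates, against 182, 114 and 135 CPM in control replicates. Both genes were higher in all 3 pairs, Pparg by 0.13 to 0.51 and Plin2 by 0.20 to 0.25 on the log2 scale. Fabp4, with 23.9, 12.3 and 19.0 CPM in HTT-deleted replicates against 23.3, 10.4 and 20.4 CPM in control replicates, had pair differences of both signs. So did Lpl, with 664, 775 and 228 CPM in HTT-deleted replicates against 598, 823 and 218 CPM in control replicates. For Lpl the distance between replicates, 1.84 on the log2 scale, was far greater than any pair difference in this fraction, which ran from -0.09 to 0.15.

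**Figure D3:**
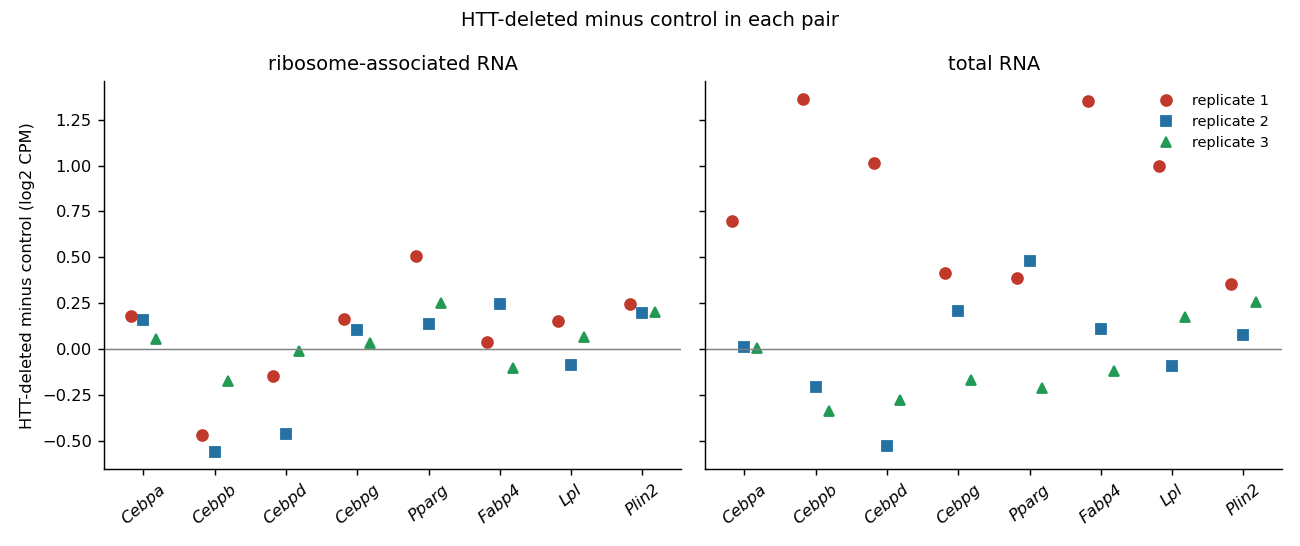
Difference between HTT-deleted and control libraries of the same replicate number (log2 CPM) for the 8 expressed genes, in ribosome-associated RNA (left) and total RNA (right). Cebpb and Cebpd lie below 0 in all 3 pairs of ribosome-associated RNA, and in total RNA replicate 1 lies at 1.36 and 1.01 for them while replicates 2 and 3 lie below 0.

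The second question was how much of each mRNA was found with ribosomes relative to total RNA. In control cells, ribosome-associated over total, values are given from fits with and without the replicate number as a block, since libraries with the same number in both fractions came from 1 culture. Without the block 3745 of 14990 genes (25%) were called and with it 7524 (50.2%). Cebpb is given as values only, since the control ribosome libraries also entered the comparison by which it was chosen. Its log2 ratio in control cultures 1, 2 and 3 was 0.78, 0.24 and 0.58, and the fitted value was 0.51 (SE 0.15) without the block and 0.53 (SE 0.10) with it.

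Of the 7 other tested genes, none was called in control cells without the block and 5 were called with it, all higher in ribosome-associated RNA, against the background of 50.2% called. Cebpd had ratios of 0.28, 0.39 and 0.22 in control cultures 1, 2 and 3, and it and Cebpb were the 2 genes whose ribosome libraries all lay above all total libraries, as did 20.6% of all genes. The fitted Cebpd value was 0.29 (SE 0.10, edgeR adjusted p = 0.071) without the block and 0.29 (SE 0.07, edgeR adjusted p = 0.00499) with it. Fabp4 had the largest value of the list, 0.60 (SE 0.11, edgeR adjusted p = 0.000436) with the block, and was higher in 3 of 3 cultures. Lpl followed at 0.49 (SE 0.07, edgeR adjusted p = 0.000104), higher in 3 of 3 cultures, and without the block, where its spread between replicates stayed in the error, the same value had an SE of 0.62 and an edgeR adjusted p of 0.627. Plin2 at 0.30 (SE 0.07, edgeR adjusted p = 0.00304) and Cebpa at 0.28 (SE 0.08, edgeR adjusted p = 0.00865) were also higher in 3 of 3 cultures with the block. Cebpg at 0.05 (SE 0.07) and Pparg at 0.23 (SE 0.17) did not pass the test with the block, with edgeR adjusted p-values of 0.578 and 0.288. Of 20 macrophage markers 15 were also called higher with the block and 0 lower, with a median of 0.54. Without the block 0 of the 20 were called, and without control replicate 1 of ribosome-associated RNA as well their median was -0.08. That last fit left control replicate 1 of total RNA without its partner. In replicates 2 and 3 with the block, 15 of the 20 were called higher and 0 lower, with a median of 0.49. There 49.2% of all genes were called. The part of the macrophage markers in the values of Fabp4, Lpl, Plin2 and Cebpa was not tested.

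Without control replicate 1 of ribosome-associated RNA, the library with the length shift, the fit without the block called 2671 of 15628 genes (17.1%) and again none of those 7. Replicates 2 and 3 with the block gave 0.26 for Cebpa, 0.30 for Cebpd, 0.48 for Fabp4, 0.45 for Lpl and 0.30 for Plin2, and called the same 5 genes, against 49.2% of all genes. That fit rests on 1 residual degree of freedom per gene, moderated across genes.

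In HTT-deleted cells the same ratio was dominated by 1 library. The fit without the block called 131 of 14627 genes (0.896%) and the one with it 97 (0.663%), all of them lower in ribosome-associated RNA, and none of the list was among them. In HTT-deleted cultures 1, 2 and 3 the log2 ratio of Cebpb was -1.06, -0.12 and 0.74, and that of Cebpd was -0.88, 0.46 and 0.49. Fabp4 had -0.51, 0.74 and 0.43, and Lpl had -0.26, 0.48 and 0.33. Culture 1 thus gave a negative value for each of these 4 genes, as it did for Cebpa (-0.16) and Cebpg (-0.14), and its total library is the one with the length shift and with the high levels described above. Plin2, at 0.19, 0.39 and 0.29, was positive in all 3 cultures. Without that total library 3008 of 15141 genes (19.9%) were called and still none of the list. In replicates 2 and 3 with the block 8333 of 14981 genes (55.6%) were called. Among them were 5 of the 7 genes other than Cebpb, the same 5 as in control cells, at 0.34 for Cebpa, 0.47 for Cebpd, 0.55 for Fabp4, 0.40 for Lpl and 0.34 for Plin2. These calls also rest on 1 residual degree of freedom per gene, moderated across genes, and on cultures 2 and 3 only. Of the 20 macrophage markers 15 were called higher in that fit and 0 lower.

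The difference between the 2 ratios, HTT-deleted minus control cells, holds the comparison by which the genes were chosen and is given as values. With culture as a block it was -0.68 (SE 0.41) for Cebpb, -0.41 (SE 0.32) for Fabp4, -0.32 (SE 0.21) for Lpl and -0.27 (SE 0.35) for Cebpd. For Cebpa, Cebpg, Pparg and Plin2 it lay between -0.11 and 0.10. Leaving out HTT-deleted culture 1 moved Cebpb to -0.23, Cebpd to 0.17, Fabp4 to -0.04 and Lpl to -0.10.

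**Figure D4:**
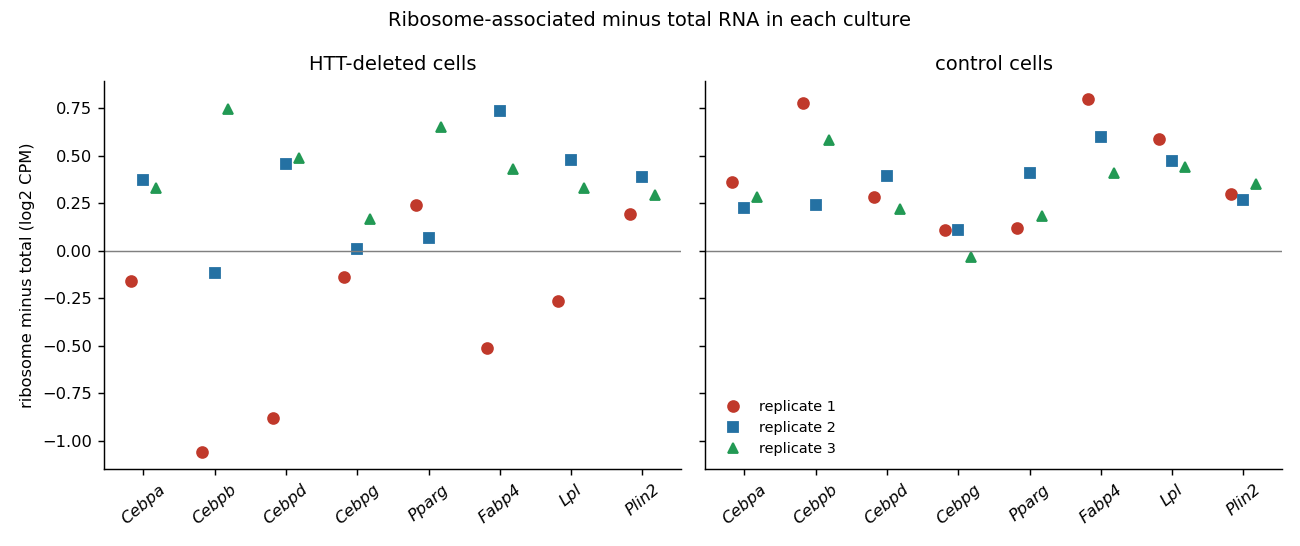
Ribosome-associated minus total RNA (log2 CPM) in each culture for the 8 expressed genes, in HTT-deleted cells (left) and control cells (right). In control cells every point of Cebpa, Cebpb, Cebpd, Fabp4, Lpl and Plin2 lies above 0, and in HTT-deleted cells replicate 1 lies at -1.06 for Cebpb and -0.88 for Cebpd.

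The wider network of these genes was described by lists of pathway genes. In total RNA of HTT-deleted against control cells, 0 genes of any list were called, with or without the block. The median log2 fold change without the block was 0.30 for the 8 tested genes of the group itself and 0.31 for 11 partners and regulators of C/EBP proteins, against 0.01 for all genes. Without HTT-deleted replicate 1 those medians were -0.04 and -0.03. For 17 transcription factors that promote adipogenesis the median was 0.03, for 11 inhibitors of it -0.07 and for 19 other lipid genes of fat cells 0.08. Without HTT-deleted replicate 1 the medians of these 3 lists were 0.05, 0.05 and 0.02. In replicates 2 and 3 with the block, 1 of these lipid genes was called, the epidermal fatty acid carrier Fabp5, at 0.57 (SE 0.08, edgeR adjusted p = 0.00726), where 0.629% of all genes were called. Genes that C/EBP factors are known to activate in inflammation had a median of -0.14 over 8 tested genes in total RNA and of -0.40 on ribosomes. In each fraction 6 of the 8 were below 0. Leaving out 1 library moved these medians to between -0.27 (without control replicate 1) and 0.14 (without control replicate 2) in total RNA, and to between -0.60 (without HTT-deleted replicate 3) and -0.05 (without control replicate 2) on ribosomes. In replicates 2 and 3 with the block, the total RNA median of these inflammatory genes was -0.43, with 6 of 7 tested genes below 0.

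In control cells, the fit of ribosome-associated over total RNA with the block called 3 of 11 C/EBP partners higher and 1 lower, where 50.2% of all genes were called. The 3 higher were Atf3, at 0.49 (SE 0.13, edgeR adjusted p = 0.00623), and Atf4 and Atf5 at 0.39 and 0.33, all of them stress-response factors of the basic leucine zipper class. Celf1, an RNA-binding protein known to act on Cebpb translation, was the lower one at -0.32 (SE 0.10, edgeR adjusted p = 0.0127). Of 18 factors that promote adipogenesis 0 were higher and 4 lower, led by Prdm16, the brown fat regulator, at -0.69 (SE 0.16, edgeR adjusted p = 0.00249). Of 19 lipid genes 9 were higher and 3 lower, with Cd36, the fatty acid translocase, at 0.83 and Hilpda, a lipid droplet inhibitor of lipolysis, at 0.79, against the synthase Fasn at -0.73. Among 5 tested partners of lipoprotein lipase, Apoe (0.52) and the maturation factor Lmf1 (0.31) were higher and the receptor Lrp1 (-0.92) was lower. Without the block the calls in these lists fell to 1 of 11 C/EBP partners (Atf4), 1 of 18 factors (Stat5b), 4 of 19 lipid genes and 1 of 5 lipase partners (Lrp1), where 25% of all genes were called. Without control replicate 1 of ribosome-associated RNA as well, they were 1 of 11, 0 of 18, 2 of 19 and 1 of 5, where 17.1% of all genes were called. Replicates 2 and 3 with the block, which also leave that library out, called 3 of 11 C/EBP partners higher and 1 lower. For the 18 factors that fit called 2 higher and 5 lower, for the 19 lipid genes 9 and 3, and for the 5 lipase partners 2 and 1. It called 49.2% of all genes.

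Markers of macrophages moved with some of these genes. All 20 markers tested were above 0 in HTT-deleted against control cells in both fractions, with a median log2 fold change of 0.81 in the total and 0.75 in the ribosome-associated libraries. In total RNA that median was 0.16 without HTT-deleted replicate 1, with 16 of 20 above 0, and 1.496 without control replicate 1. Each of those fits left 1 library without its partner. In replicates 2 and 3 with the block, the total RNA median was 0.81, with 20 of 20 above 0. On ribosomes it was 0.16 without HTT-deleted replicate 1 and 1.31 without control replicate 1. None was called in total RNA with 3 replicates, and 5 of the 20 were called higher in replicates 2 and 3 with the block, where 0.629% of all genes were called. Their summed level was 2083 to 7951 CPM in total RNA of HTT-deleted cells, against 910 to 3771 CPM in total RNA of control cells. In ribosome-associated RNA it was 3193 to 9511 CPM in HTT-deleted cells, against 1363 to 5517 CPM in control cells. In these bulk libraries more cells of a type and more RNA per cell cannot be told apart. Of 8 endothelial markers, Esam had at most 6 counts, Pecam1 and Cdh5 at most 4 and Cldn5 at most 1 in any library, while Tek had 102 to 566 counts, Kdr 51 to 163, Egfl7 31 to 141 and Emcn 5 to 44.

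The genes were then compared with the mean of the 20 macrophage markers over the 12 libraries, after the mean of each fraction had been subtracted. These correlations are descriptions, since total and ribosome libraries of 1 culture share their cells and the libraries share cultures, depth and the length shift. Plin2 followed the macrophage mean most closely, with a Pearson r of 0.95 and a Spearman rho of 0.95 (n = 12 libraries), and 0.93 without HTT-deleted replicate 1 of total RNA. Fabp4 had 0.85, and 0.78 without that library. Cebpa and Cebpg each had 0.70, and 0.59 and 0.53 without it. Cebpb had 0.19 and Cebpd 0.18, and both were negative without that library, at -0.53 and -0.60. Lpl had 0.06 and Pparg 0.27. The part of macrophage content in the values of Plin2 and Fabp4 was not tested.

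**Figure D5:**
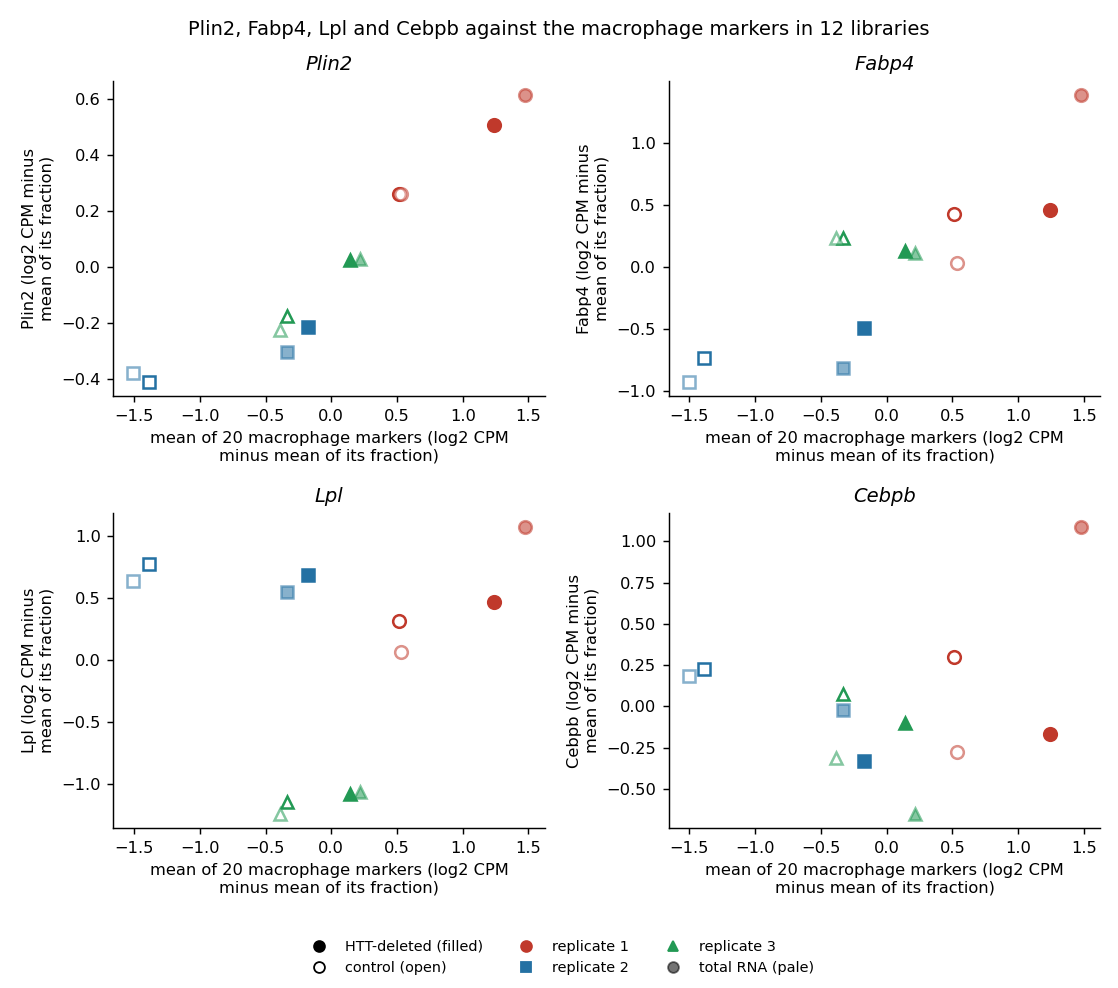
Level of Plin2, Fabp4, Lpl and Cebpb against the mean of 20 macrophage markers in the 12 libraries, both axes as log2 CPM minus the mean of the fraction (filled: HTT-deleted, open: control, pale: total RNA, colour and shape: replicate). Plin2 and Fabp4 climb with the macrophage mean (r = 0.95 and 0.85, n = 12), Lpl separates replicate 3 from the other 2, and Cebpb shows 1 high total library of HTT-deleted cells.

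Among themselves the genes split. Lpl and Pparg ran opposite, with a Pearson r of -0.81 and a Spearman rho of -0.64 over the 12 libraries, and replicate 3 was lowest in Lpl and highest in Pparg in each group. Cebpa and Fabp4 had an r of 0.91, and 0.90 without HTT-deleted replicate 1 of total RNA. Cebpb and Cebpd had 0.79, but 0.33 without that library.

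Out of 13449 genes, those most like each member by the same centred measure were different for every member. Lpl was closest to Dcn, the matrix proteoglycan decorin of fibroblasts (r = 0.99), followed by Reg1 and Fgf18. Plin2 was closest to Mfsd12 (r = 0.99), Clec5a, a receptor of myeloid cells, and Slfn2. Fabp4 was closest to Arpc1b (r = 0.99), an actin-branching subunit, with Gm12751 and Bcl2l1 after it. For Cebpb the nearest were Gm38211 (r = 0.94), Tmem60 and Rps12-ps4, and without HTT-deleted replicate 1 of total RNA their r was 0.86, 0.78 and 0.76. For Cebpd they were Creld2 (r = 0.96), Borcs6 and Med7, with 0.85, 0.82 and 0.82 without that library. Cebpa was closest to Cdt1 (r = 0.97), Tpi1 and Crabp2, Cebpg to Aagab (r = 0.97), Chek2 and Atg5, and Pparg to Car13 (r = 0.94), Fam13a and Tro.

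Some of the genes overlap others in the annotation. Cebpb, at chr2:167688915-167690418 on the plus strand, shares 312 exon bases with Tmem189 on the opposite strand, and Cebpd, at chr16:15887286-15891031, shares 562 with Spidr on the opposite strand. Cebpa shares 51 with Gm45091 on the opposite strand. Cebpg shares 73 with Gm44836 on the same strand and 4 with Gm45095 on the opposite strand. The library kit keeps strand per the labels, and the strand setting of the counting was not given in the sources used here, so reads of these overlaps may be split or lost. For the same-strand overlap of Cebpg this does not depend on that setting.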

How the data were processed

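Libraries of total and ribosome-associated RNA were stranded, per the labels' protocols. Per the submitters' processing notes, reads were checked with FastQC, aligned with STAR 2.7.2b to GRCm38 and counted with HTSeq 0.11.1, and edgeR was used. Neither annotation release nor strand setting is given in the sources used. The deposited values used are raw read counts per gene for 12 libraries. Rows that name no gene were left out. Among them, the rows for no feature and for ambiguous reads held 5.22% to 10.4% of the counts in those rows and the genes together. The authors deposited 1 further table with log2 fold changes, log2 mean CPM, likelihood ratio scores, p-values and false discovery rates of 2 comparisons, read only where it is named.

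CPM values were computed from the counts with TMM factors over 12 libraries, log2 CPM with a prior count of 2, and levels per kilobase with the longest coding transcript of GENCODE M21. Tests were edgeR 4.0.16 quasi-likelihood fits in R 4.3.3 on the libraries of each comparison, after filterByExpr, with Benjamini-Hochberg adjustment over all genes tested and a threshold of 0.05. The fits without the replicate block, and the fit of the difference between the 2 ratios, were tested on simulated counts. Those counts were drawn independently for each library, with no shared culture and no length shift. The fits with the replicate block were not tested in this way. Replicate numbers pair the samples: total and ribosome-associated RNA of 1 number came from 1 suspension per the labels, with deviations correlated at 0.35 to 0.74, and HTT-deleted and control libraries of 1 number deviated together at 0.23 to 0.70 in each of 3 pairs. Replicates differed by a chi-square of 32.1 to 162 per degree of freedom, so all were kept. HTT-deleted replicate 1 of total RNA gave the highest values, 162 against replicate 2 and 153 against replicate 3 of its group. The next highest was 71.8, between replicates 2 and 3 of ribosome-associated RNA of control cells. Alternatives were other scaling, filters, DESeq2 1.42.0, limma voom 3.58.1, the block and leaving out libraries.

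The 9 genes and all lists were chosen with earlier results of these data known. Named genes are the 9, Htt, of each list up to 3 called genes by size of change, or the 3 with the smallest p where none was called, and the 3 genes most like each of the 9. Some calls of the list of adipogenesis inhibitors are not reported here. Celf1 was named after its value was seen, since it is the 1 lower gene of its list. Where replicates are passages, p-values measure only the spread between these samples.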

Additional observations from a re-analysis of the deposited data

How the results depend on the processing

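In total RNA the count of genes called for HTT deletion was 0, against 1 with no filter on low counts, 3 with DESeq2 and 94 in replicates 2 and 3 with the block, where Cebpb, Cebpd and Fabp4 turned to -0.26, -0.39 and -0.020. The replicate block alone left it at 0, and RLE scaling, limma voom, a filter at 5 CPM and all 12 libraries in 1 fit changed no call of the 8 genes there. In ribosome-associated RNA the count was 0, against 1 with DESeq2, 247 with the replicate block and 14 in replicates 2 and 3 with it. For ribosome-associated over total RNA, control cells had 3745 calls, against 1646 with all 12 libraries in 1 fit, 7524 with the replicate block and 7445 in replicates 2 and 3 with it. HTT-deleted cells had 131, against 208 with no filter, 86 at 5 CPM, 866 with DESeq2, 1135 with all 12 libraries and 8333 in replicates 2 and 3 with the block. Some values in HTT-deleted cells changed sign: Cebpg (0.013) and Fabp4 (0.0036) with no filter, Cebpd (0.013), Cebpg (0.00099) and Fabp4 (0.20) with limma voom, Cebpd (0.016), Cebpg (0.0013) and Fabp4 (0.20) with the replicate block, and Cebpb (0.30), Cebpd (0.47), Cebpg (0.081) and Fabp4 (0.55) in replicates 2 and 3 with it. The cause was not tested.

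Leaving out 1 library at a time, total RNA log2 fold changes ran from -0.17 to 0.81 for Cebpb, -0.32 to 0.48 for Cebpd, -0.045 to 0.60 for Pparg, -0.14 to 1.08 for Fabp4, -0.046 to 0.91 for Lpl and -0.032 to 0.51 for Plin2. For ribosome-associated over total RNA, control cells had 1507 to 3251 calls and Pparg ran from -0.17 to 0.65. HTT-deleted cells had 0 to 3008 calls, and values ran from -0.11 to 0.40 for Cebpa, -0.65 to 0.30 for Cebpb, -0.34 to 0.42 for Cebpd, -0.16 to 0.17 for Cebpg, -0.39 to 0.77 for Fabp4 and -0.30 to 0.59 for Lpl. Adipoq is too low to compare.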
